A study of Solanum lycopersicum with 18 samples.

Results

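The leaf transcriptome of Micro-TOM-EX (EX) tomato at 12 h was set against that of Micro-TOM (MT) at 12 h. MT is a dwarf laboratory cultivar, and the labels do not explain the suffix EX, so nothing is known here of the alleles in which the 2 materials differ. Genes were taken when their mean was at least 1 FPKM in either group at 12 h, where FPKM is the number of fragments scaled to transcript length and library depth. This rule kept 17016 of the 23348 deposited genes. Of these, 16418 reached 1 FPKM in both groups, 334 in EX alone and 264 in MT alone. Just inside the threshold, 200 genes had a higher mean of 1 to 1.1 FPKM, and just outside it 219 genes had one of 0.9 to 1 FPKM. The series holds 3 libraries for each material at 0, 4 and 12 h, 18 libraries in all. The growth protocol puts both materials in the cold for these hours, with a day of 16 h of light, whereas the stress label reads cold for every EX library and control for every MT library, those of 0 h included. Which of these holds cannot be told from the labels. No label tells whether the 3 libraries of a group are separate plants. The p-values below therefore weigh differences against library-to-library spread alone, part of which could be technical. Except where a fit of fewer libraries is named, that spread is pooled over all 18 libraries, those of 0 h and 4 h included.

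In the cold, plants of many species induce transcription factors of the CBF family, which in turn raise dehydrins and other protective proteins. Tomato, a chilling-sensitive plant, keeps a CBF pathway of its own. Leaves in the light also depend on the chlorophyll a/b-binding (CAB) proteins that harvest light, and their defence against insects and pathogens runs through jasmonate synthesis, proteinase inhibitors and pathogenesis-related proteins such as chitinases and glucanases. Phosphoenolpyruvate carboxylase fixes bicarbonate onto phosphoenolpyruvate and feeds the citric acid cycle with oxaloacetate.

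Depth was alike in the 6 libraries of 12 h, at an estimated 16.8 to 18.4 M fragments each. Correlations between the 12 h libraries, across genes on the log2(FPKM + 1) scale, ran from 0.959 to 0.985. The libraries did not sort by material, since EX library 1 correlated more closely with MT library 1 (0.983) than with EX library 2 (0.970). At 12 h, libraries of the same number deviated from their group means together, though no label pairs them. At 0 h and 4 h the highest such correlations were between libraries of different numbers (0.47 and 0.39). Within EX, library 1 stood over 1 log2 unit above both others in 282 genes and library 2 in 92. Within MT, library 3 stood as far below both others in 263 genes. In leaf material, fewer cells of a type and less RNA per cell cannot be told apart.

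At 12 h, 23 of the 17016 genes differed between EX and MT at an adjusted p under 0.05 in limma (0.135%). EX was higher in 15 of them and lower in 8. Over the 17870 genes tested across the series, 0.134% were called, 0.0839% higher and 0.0504% lower. The higher ones included PEPC1, a phosphoenolpyruvate carboxylase gene. Few of the 23 were abundant. Their higher group mean reached 5 FPKM in 10 and 10 FPKM in 7, and 9 were transcript models that the authors had added to the annotation. PEPC1 was the 1 gene among them with a symbol. Genes without an annotation here are given by their identifier and no role. Of the 23, 13 had passed the 1 FPKM rule through 1 group alone, so their difference is partly set by that rule.

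In all 23 genes, the 3 EX libraries lay above or below the 3 MT libraries with no overlap. Over the whole set that was so in 2107 genes (12.4%), with EX above in 1182 (6.95%) and below in 925 (5.44%). Most differences were small. They were under 0.5 log2 units in 94.42% of the genes, at least 1 unit in 167 and at least 2 units in 11, and of the 167 only 94 had groups that did not overlap. When each library of 12 h was left out in turn, 8 of the 23 calls held in all 6 fits, those of LOC104645110, BGI_novel_G000035, BGI_novel_G000544, LOC101251055, LOC101266830, LOC101250115, BGI_novel_G000240 and LOC101254912. All of these but LOC101251055 passed the 1 FPKM rule through 1 group alone. In the other group every 12 h library was at or below 0.15 FPKM. A group near 0 has little spread, so these fits are a weaker check of such genes. The other 15 of the 23 calls were lost in at least 2 of the 6 fits, and most of them in nearly all. Of these, 8 were lost in 5 fits and 4 in all 6 (LOC101253503, LOC101262798, LOC101255379 and BGI_novel_G000575).

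**Figure D1:**
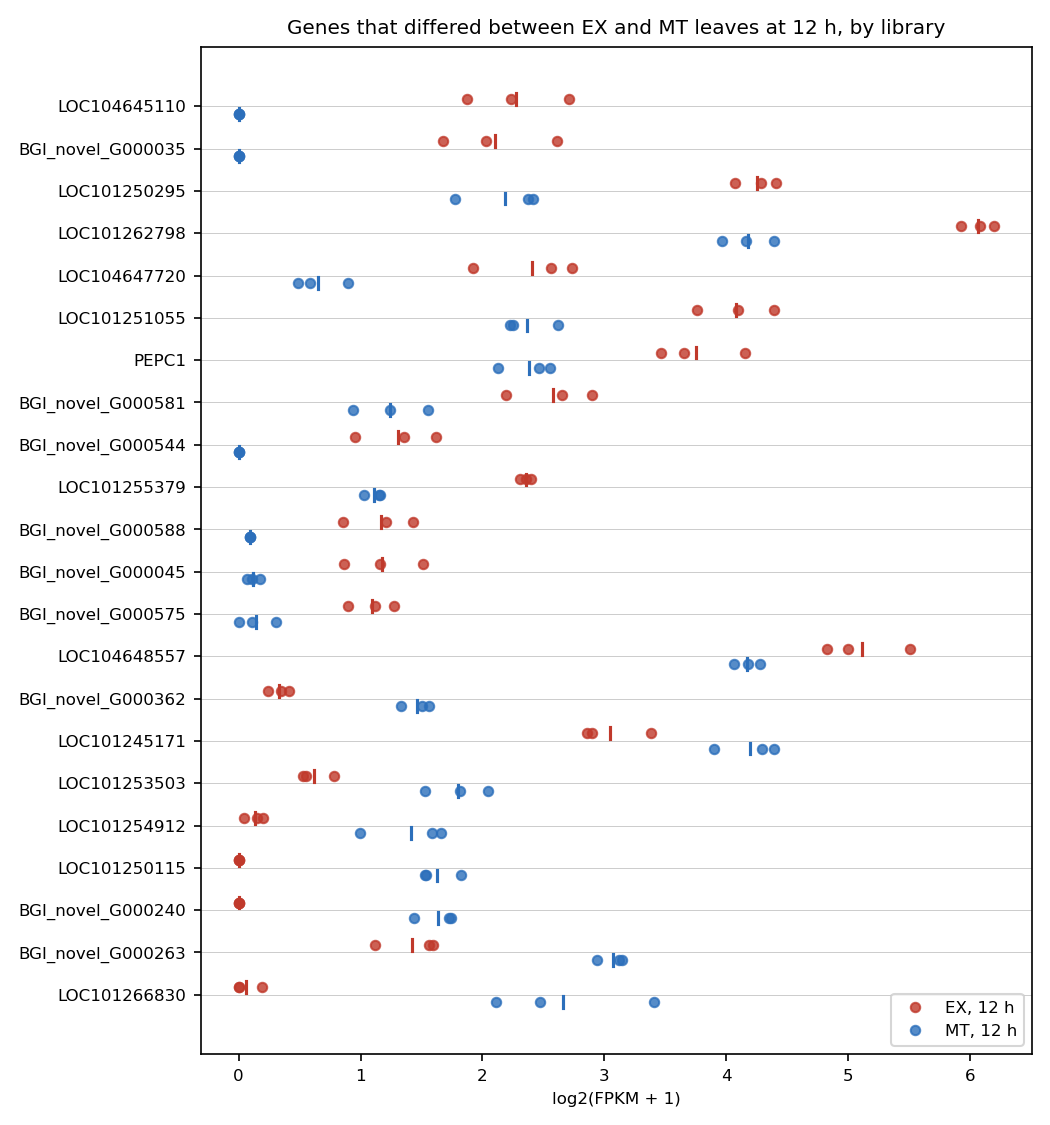
Values of 22 of the genes that differed at 12 h, as log2(FPKM + 1) on the horizontal axis, with 1 point per library (EX above, MT below in each row) and a tick at the mean of 3. The groups do not overlap in any of the 22, and most points lie at low values, with LOC101262798 among the highest at 66.17 FPKM on average in EX and 17.18 FPKM in MT.

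PEPC1 (chromosome 4, 663671 to 674893) had 10.04, 16.74 and 11.55 FPKM in EX leaves, against 3.38, 4.86 and 4.53 FPKM in MT leaves. Every EX library was at least at 10 FPKM and every MT library under 5 FPKM, and the difference was 1.37 log2 units (SE 0.24, limma adjusted p = 0.0308). At 0 h the 2 materials were close, with means of 10.85 FPKM in EX and 8.66 FPKM in MT. At 4 h the means were 9.72 FPKM in EX and 10.42 FPKM in MT. The low value at 12 h is thus that of MT, though the difference at 12 h was not called against that at 0 h (adjusted p = 0.215) or at 4 h (adjusted p = 0.271). The PEPC1 call was lost in 5 of the 6 fits that left out 1 library of 12 h (all but that without EX library 1), with an adjusted p of 0.0456 to 0.228. In a fit of the 12 h libraries alone its adjusted p was 0.155.

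None of the other 5 genes of the carboxylase and its kinases passed the test. PPCK1, a gene for a kinase that phosphorylates the carboxylase, read 280.93, 362.72 and 297.6 FPKM in EX against 188.67, 256.77 and 192.88 FPKM in MT, without overlap (log2 0.56, adjusted p = 1). PEPC2 read 53.62, 51.14 and 52.44 FPKM in EX against 31.53, 44.88 and 39.21 FPKM in MT, also without overlap (log2 0.45, adjusted p = 1). Over the 6 genes of the list, EX lay above MT without overlap in 3, PEPC1 among them, against 6.95% of all genes. The list was set with earlier results of these data known, so this count supports nothing by itself. PPCK2 (log2 -0.14), PPC1 (0.04) and PEPC4 (0.33) had overlapping groups.

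LOC101251055 (chromosome 11, 10694787 to 10701166) had 12.53, 19.97 and 16.05 FPKM in EX leaves, against 3.75, 3.68 and 5.14 FPKM in MT leaves. The groups were far apart (log2 1.72, SE 0.22, limma adjusted p = 0.00297), and the call held in each of the 6 fits without 1 library of 12 h. As with PEPC1, MT was low at 12 h alone, since its mean was 13.59 FPKM at 0 h and 11.85 FPKM at 4 h. EX means were 16.82 FPKM at 0 h and 14.57 FPKM at 4 h. The change of the difference was not called (adjusted p = 0.175 against 0 h and 0.245 against 4 h).

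Other abundant genes had been called higher in EX at 0 h already. LOC101262798 (chromosome 3) read 72.32, 66.47 and 59.73 FPKM in EX against 14.61, 16.92 and 20.01 FPKM in MT (log2 1.89, limma adjusted p = 0.0414). Its difference was 1.49 log2 units at 0 h (adjusted p = 0.0355) and 1.16 at 4 h (adjusted p = 0.181). With the library number as a block its adjusted p was 0.103 at 12 h and 0.0858 over all hours, but 0.0477 when the 12 h libraries were fitted alone with the block, where it was the 1 called gene that kept its call. It lost the call in all 6 fits without 1 library (0.109 to 0.292). LOC104648557 (chromosome 7) read 27.4, 44.42 and 30.89 FPKM in EX against 15.67, 18.36 and 17.05 FPKM in MT (log2 0.94, adjusted p = 0.0184), with a difference of 0.68 log2 units at 0 h (adjusted p = 0.0306) and 0.07 at 4 h (adjusted p = 0.876). Its adjusted p ran from 0.0113 to 0.157 without 1 library. The call was lost in 5 of these 6 fits and held only without EX library 1.

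LOC101250295 (chromosome 4, 3167859 to 3175277) stood at 20.22, 15.8 and 18.5 FPKM in EX leaves, against 4.17, 4.32 and 2.42 FPKM in MT leaves (log2 2.07, SE 0.32, limma adjusted p = 0.0147). It overlaps LOC101250009 on the same strand, which read 64.33, 45.22 and 49.64 FPKM in EX against 26.13, 28.69 and 9.94 FPKM in MT (log2 1.37, adjusted p = 1). Both genes lay higher in EX without overlap between groups. For LOC101250295 the adjusted p ran from 0.044 to 0.0969 without 1 library. The call was lost in 5 of these 6 fits and held only without EX library 2. The split of fragments between such overlapping genes is uncertain.

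LOC101245171 (chromosome 6, 4786593 to 4792847) was the most abundant of the 8 genes lower in EX. It had 6.45, 9.43 and 6.26 FPKM in EX leaves, against 19.93, 18.62 and 13.94 FPKM in MT leaves (log2 -1.15, SE 0.21, limma adjusted p = 0.0442). It was also lower in EX at 0 h (log2 -1.67) and at 4 h (log2 -1.48), both past the threshold. With the number as a block at 12 h its adjusted p was 0.0559, and without 1 library it ran from 0.0394 to 0.322. The call was lost in 5 of the 6 fits without 1 library and held only without EX library 2.

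Further called genes stood at lower levels. LOC104647720 (chromosome 5) read 2.79, 4.91 and 5.67 FPKM in EX against 0.86, 0.5 and 0.4 FPKM in MT (log2 1.75, limma adjusted p = 0.0117), and was also called at 0 h and 4 h. BGI_novel_G000581 (chromosome 11) read 3.56, 5.27 and 6.45 FPKM in EX against 1.36, 1.93 and 0.92 FPKM in MT (log2 1.34, adjusted p = 0.0319). LOC101255379 (chromosome 12), overlapped on the opposite strand, read 4.27, 4.12 and 3.95 FPKM in EX against 1.04, 1.22 and 1.23 FPKM in MT (log2 1.24, adjusted p = 0.0225). EX stood above MT in all 3, with the nearest libraries over 1 FPKM apart. With the number as a block at 12 h, the adjusted p was 0.0559 for BGI_novel_G000581 and 0.0614 for LOC101255379.

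The added models BGI_novel_G000544, BGI_novel_G000588, BGI_novel_G000045 and BGI_novel_G000575 were higher in EX by 1.31, 1.07, 1.06 and 0.96 log2 units, and MT stood at or below 0.24 FPKM in each. Of these, BGI_novel_G000544 overlaps another added model on the same strand. On chromosome 7, BGI_novel_G000362, LOC101253503 and LOC101254912 were lower in EX by log2 differences of -1.14, -1.18 and -1.28. LOC101254912 read 0.11, 0.15 and 0.03 FPKM in EX against 2.16, 2 and 0.99 FPKM in MT (limma adjusted p = 0.0024). Its difference was -2.26 log2 units at 0 h (adjusted p = 2.35e-06), larger in size than at 12 h, and -0.15 at 4 h. BGI_novel_G000362 was likewise lower at 0 h (log2 -2.005, adjusted p = 7.66e-06), whereas LOC101253503 was not called then (log2 -0.22, adjusted p = 0.539).

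LOC101266830 (chromosome 6, 14408402 to 14412111) was the gene among the 23 that lay furthest below MT in EX. It read 0, 0.14 and 0 FPKM in EX leaves, against 3.33, 9.58 and 4.56 FPKM in MT leaves (log2 -2.60, SE 0.24, limma adjusted p = 0.00016). At 0 h and 4 h it stood at or below 0.43 FPKM in all libraries of both materials. Only the MT libraries of 12 h stood above 1 FPKM, and the difference at 12 h was larger in size than at 0 h (change -2.52, adjusted p = 0.00898) and at 4 h (change -2.36, adjusted p = 0.0235).

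LOC101266128 (chromosome 6, 25290812 to 25306754) showed the same kind of picture at a higher level but missed the threshold. It read 0, 0.05 and 0.05 FPKM in EX leaves, against 20.16, 41.4 and 41.38 FPKM in MT leaves at 12 h (log2 -5.02, limma adjusted p = 0.0669). In MT it was at 0.18, 0 and 0.77 FPKM at 0 h and at 14.61, 76.85 and 0.03 FPKM at 4 h, so the MT libraries of 4 h disagreed with each other. This spread enters the shared error of the fit.

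**Figure D2:**
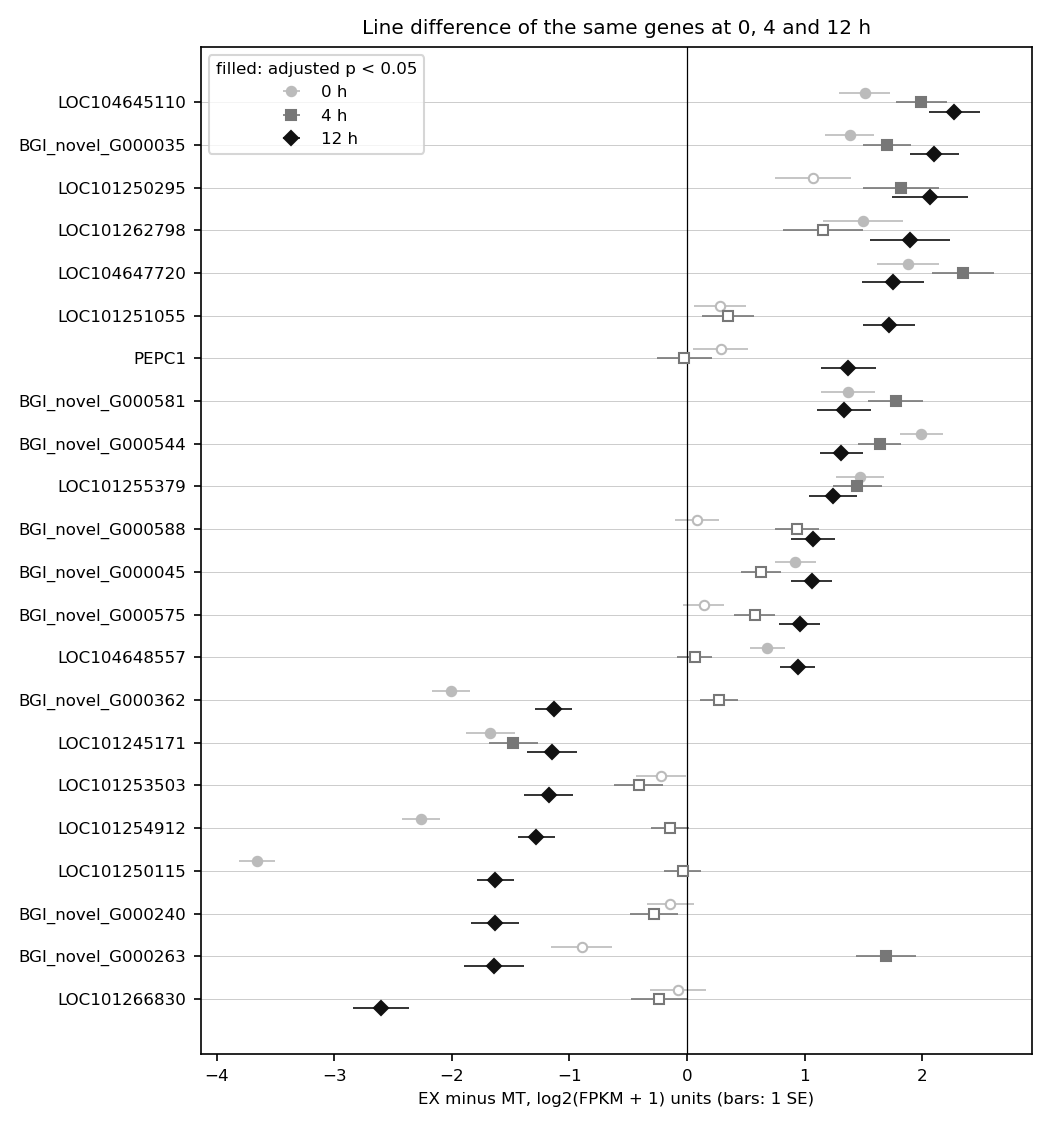
Difference of EX minus MT in log2(FPKM + 1) units for the same 22 genes at 0, 4 and 12 h, with bars of 1 SE and filled symbols for adjusted p under 0.05. The sign at 12 h was that of 0 h in all 22 and that of 4 h in 19, and BGI_novel_G000263 lies at 1.69 at 4 h but at -1.64 at 12 h.

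Of the 23 genes, 13 were also called at 0 h, where 3.17% of the tested genes were, and 9 at 4 h, where 0.297% were. At all 3 times 7 genes were called, and 8 at 12 h alone. These comparisons come from 1 fit with 1 spread per gene, so a gene with a small spread can be called in several. The difference at 12 h was called apart from that at 0 h in 4 genes of 17870 (0.0224%) and apart from that at 4 h in 7 (0.0392%).

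BGI_novel_G000263 (chromosome 5) reversed between hours. At 12 h it read 1.17, 1.95 and 2.02 FPKM in EX against 7.69, 6.67 and 7.85 FPKM in MT, whereas at 4 h it read 4.04, 5.14 and 4.43 FPKM in EX against 0.68, 1.67 and 0.12 FPKM in MT. Both differences passed the threshold, and so did the change between them (-3.33 log2 units, limma adjusted p = 0.00238). LOC101250115 (chromosome 5) stood at 0 in each EX library of 12 h, against 2.54, 1.88 and 1.9 FPKM in MT (log2 -1.63, limma adjusted p = 0.00016). At 0 h MT stood at 12.55, 8.79 and 14.7 FPKM, and at 4 h at 0.08, 0 and 0 FPKM. EX was at or below 0.04 FPKM at all hours, so the change with time lay in MT.

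Several genes were near 0 in 1 material and not in the other. By a rule chosen after the values were seen (at most 0.1 FPKM in all 3 libraries of one material and at least 1 FPKM in all 3 of the other at 12 h), 10 genes were picked, 4 of them present in EX and 6 in MT. LOC104645110 (chromosome 12) had 3.71, 5.55 and 2.66 FPKM in EX, from an estimated 21, 29 and 14 fragments, while MT read 0 in all 3. BGI_novel_G000035 (chromosome 1) had 2.19, 5.11 and 3.07 FPKM in EX, and every MT library of the series, 9 in all, had it at 0. Both kept the call without any 1 library of 12 h. Their MT values at 12 h were all 0 and so without spread, which makes these fits a weaker check of them.

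For several others, presence varied among the MT libraries of earlier hours. LOC104647208 (chromosome 4, 65547373 to 65652382) read 9.45, 13.5 and 10.15 FPKM in EX and stood at 0 in all 3 MT libraries of 12 h, but MT held 22.68, 0 and 18.77 FPKM at 0 h and 12.91, 0 and 15.04 FPKM at 4 h. The added model BGI_novel_G000240 lies inside this gene on the same strand. At 12 h it stood at 0 FPKM in each EX library and at 2.3, 2.34 and 1.71 FPKM in MT (log2 -1.63, limma adjusted p = 0.0024), and in MT at 0 h and 4 h it was above 0 in library 2 only (0.34 FPKM at 0 h and 0.79 FPKM at 4 h). So each MT library with fragments in the added model had LOC104647208 listed at 0, and each MT library with LOC104647208 above 0 had that added model at 0. A further added model at the same coordinates and strand, BGI_novel_G000239, did not keep to this. It stood at 0 in all EX libraries and at 1.52, 1.18 and 0.27 FPKM in MT at 12 h, but at 4 h it read 0.94 FPKM in MT library 1, where LOC104647208 read 12.91 FPKM. Both differences at this locus are therefore uncertain as those of separate genes.

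LOC101247991 and LOC101248555, both on chromosome 12, were listed at 0 in all 9 EX libraries. In MT at 12 h LOC101247991 read 4.87, 3.37 and 2.46 FPKM and LOC101248555 read 5.55, 3.88 and 1.44 FPKM. MT library 2 of 4 h was at 0 for both, as it was for LOC104644967. Neither passed the test at 12 h (adjusted p = 0.902 and 0.303).

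**Figure D3:**
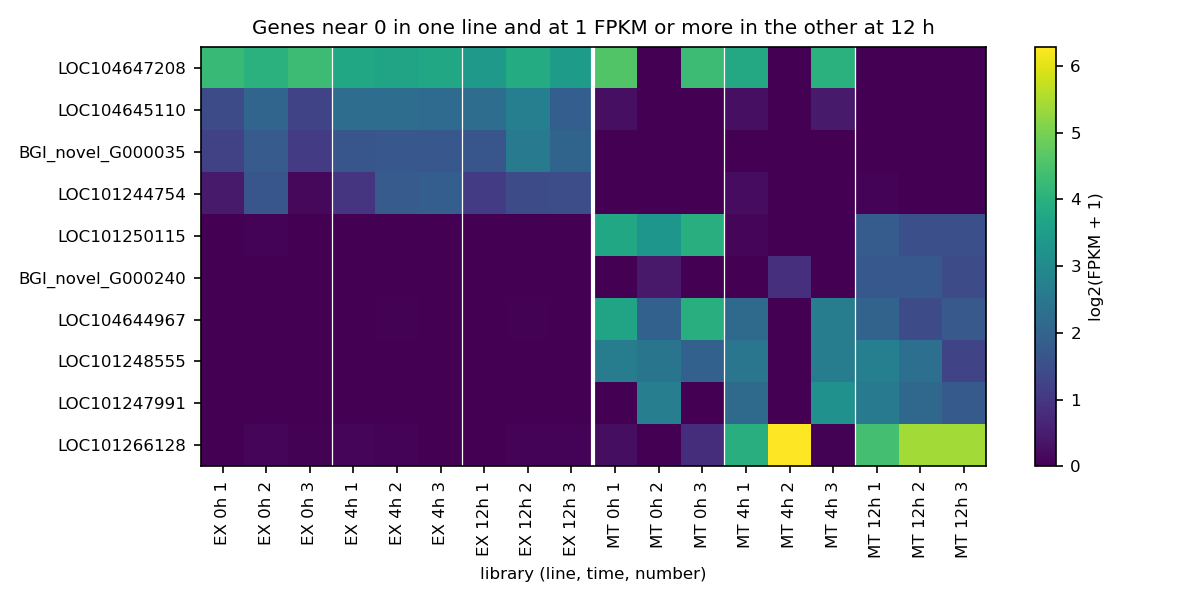
Heat map of log2(FPKM + 1) in all 18 libraries (EX left, MT right, hours in order) for the 10 genes near 0 in one material at 12 h. The top 4 rows are the genes present in EX, and library 2 of MT at 0 h and 4 h is dark for LOC104647208, as all 3 MT libraries of 12 h are.

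Of the 1247 genes with a symbol and a higher mean of at least 5 FPKM, 146 had groups without overlap at 12 h (11.7%, against 12.4% over all genes). Of the 8 highest differences among them, only that of PEPC1 was called. DEFL1, a defensin-like gene on chromosome 7, read 313.29, 249.84 and 182.77 FPKM in EX against 50.06, 121.26 and 66.14 FPKM in MT (log2 1.70, limma adjusted p = 0.337). The metallocarboxypeptidase inhibitor gene mcpi read 146.39, 144.67 and 72.33 FPKM in EX against 33.82, 47.41 and 32.97 FPKM in MT (log2 1.59, adjusted p = 1). The alcohol dehydrogenase gene ADH2, which overlaps another gene on the same strand, read 12.54, 11.82 and 9.03 FPKM in EX against 3.99, 5.46 and 5.12 FPKM in MT (log2 1.05, adjusted p = 0.0889).

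The other 4, ARPI, CHLN, SAP8 and the kinase gene MAPK4, differed by 0.91 to 0.95 log2 units. At the other end, GABA-TP3, a transaminase gene of 4-aminobutyrate (GABA) breakdown, read 2.07, 2.29 and 3.49 FPKM in EX against 13.25, 7.83 and 8.5 FPKM in MT (log2 -1.57, SE 0.33, limma adjusted p = 0.122). Its relatives GABA-TP1 and GABA-TP2 lay at 0.06 and -0.19 log2 units with overlapping groups. The next lowest, PDH, CAB12, XTH3, rps16, LIN8, WRKY80 and MYC2, lay between -0.73 and -0.54 log2 units, and none was called. At 0 h, DEFL1 (log2 2.695, limma adjusted p = 0.00463), mcpi (4.425, 0.000905) and ARPI (2.96, 0.00799) had been called higher in EX. GABA-TP3 (-3.73, 2.38e-05) and rps16 (-1.185, 0.0119) had been called lower. Each of these differences was larger in size at 0 h than at 12 h. The rest of the 8 highest and 8 lowest were not called at 0 h. CAB12 is overlapped on the opposite strand and XTH3 on the same strand, so their values are uncertain.

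The gene lists gave 1 call between them, PEPC1. They are described by counts and medians beside the median of all 17016 genes, 0.02 log2 units. The lists were rewritten after values had been seen, so such counts support nothing by themselves. Because the numbers were shared by deviations at 12 h, the count of genes with the same sign in 3 of 3 numbered pairs is also given. Over all genes, EX was higher in 3 of 3 pairs in 3397 (20.0%) and lower in 2392 (14.1%).

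**Figure D4:**
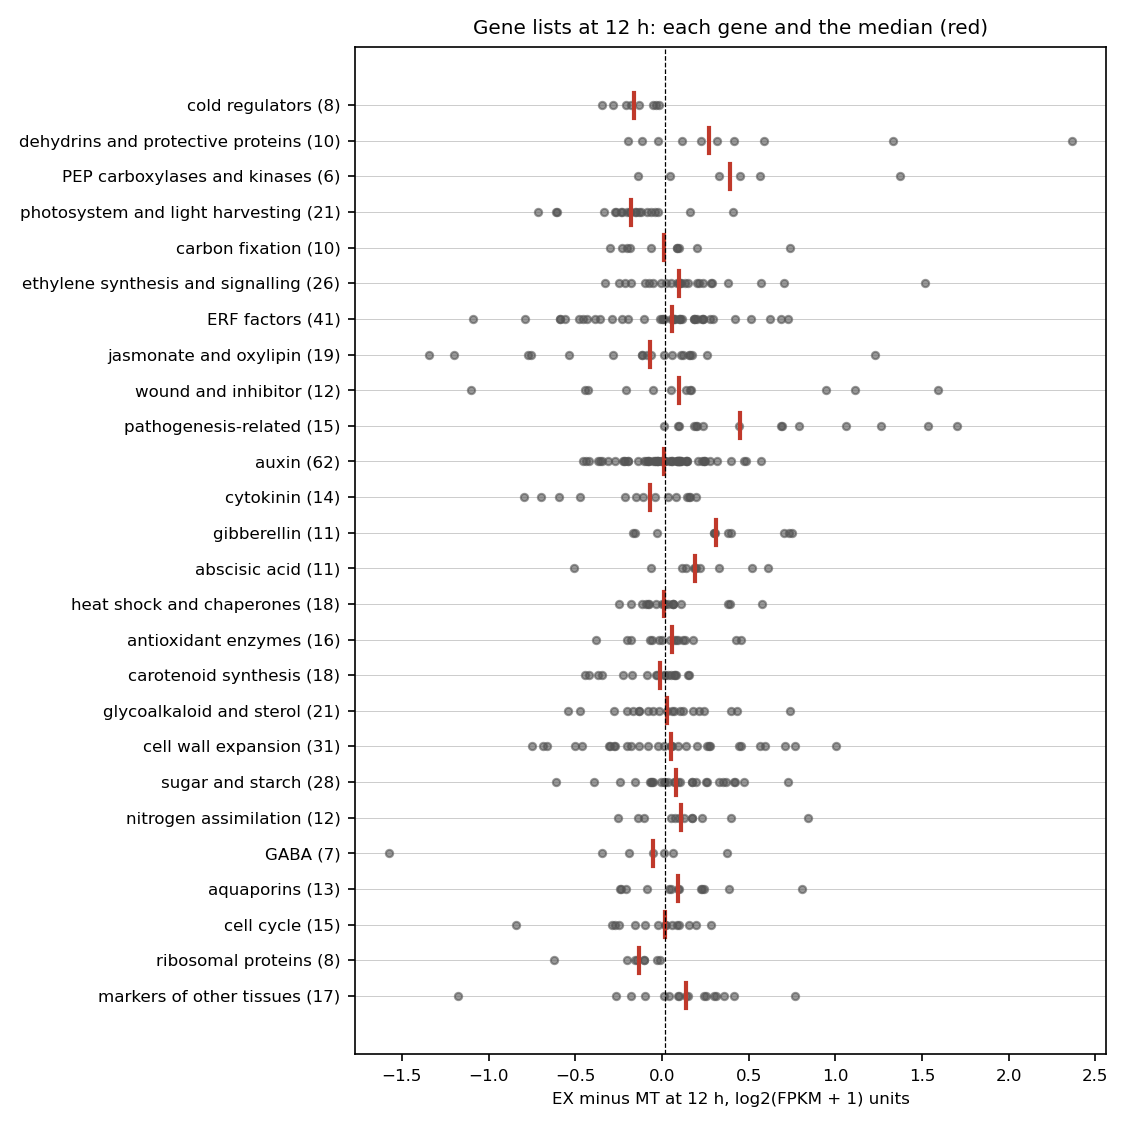
Difference of EX minus MT at 12 h in log2(FPKM + 1) units for each gene of the 26 lists (points; number of genes in brackets), with the median of the list in red and that of all genes as a dashed line. The pathogenesis-related list lies to the right of 0 throughout, with a median of 0.45, and the cold regulators and ribosomal proteins lie to the left of 0, with medians of -0.16 and -0.13.

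No cold regulator was called at 12 h. The 8 genes lay between -0.35 and -0.02 log2 units, and none had the same sign in 3 of 3 pairs. CBF1, the cold-induced transcription factor gene, read 14.05, 77.79 and 11.93 FPKM in EX against 42.2, 16.27 and 36.02 FPKM in MT (log2 -0.28, limma adjusted p = 1). EX library 2 was the highest of the 6 and MT library 2 the lowest of its group, and the sign of the difference turned when an EX library was left out, to 0.08 without library 1 and 0.19 without library 3. DREB2 (log2 -0.35), from the same family of factors, and ICE1A (log2 -0.21), a regulator upstream of CBF genes, had overlapping groups.

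Protective proteins were led by TAS14, a dehydrin gene. It read 42.9, 231.42 and 14.95 FPKM in EX leaves, against 6, 34.05 and 3.85 FPKM in MT leaves, a difference of 2.37 log2 units. Library 2 was the highest of its group in both materials, and the groups overlapped, yet EX was higher by 2.65, 2.73 and 1.72 log2 units in pairs 1, 2 and 3. The limma adjusted p was 1, and it was 1 again with the number as a block over all hours or at 12 h. In a fit of the 6 libraries of 12 h alone with that block it was 0.0503, which also misses the threshold. The list of 10 had a median of 0.27, with 7 genes above 0 and 2 higher in 3 of 3 pairs. ASR1 (log2 0.59), an abscisic acid, stress and ripening protein, was above MT without overlap. LE25, a late-embryogenesis protein gene, was at 10.11 FPKM in EX library 2 and at or below 0.64 FPKM in all 5 others.

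The 15 pathogenesis-related genes all had values above 0 at 12 h, from 0.01 to 1.70 log2 units, with a median of 0.45. The lowest is within the shift of the median of all genes between scalings, which was 0.023 as tested and -0.006 after quantile normalization. EX was higher in 3 of 3 pairs in 10 of them, although none was called. The list median was -0.08 at 0 h and -0.17 at 4 h. CHI3, a chitinase gene, read 72.95, 474.71 and 32.87 FPKM in EX against 52.69, 75.19 and 20.14 FPKM in MT (log2 1.26, adjusted p = 1). Here EX library 2 was far above the rest. TSI-1, a stress-induced gene of the PR10 type, read 8.66, 12.36 and 4.89 FPKM in EX against 0.73, 8.86 and 0.84 FPKM in MT (log2 1.53, adjusted p = 1). PR-P2 (log2 0.45) and CHI9 (log2 0.69) were also higher in each pair.

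Jasmonate and oxylipin genes split. The list of 19 had a median of -0.07, with 5 genes higher and 6 lower in 3 of 3 pairs. Genes of synthesis and of signalling stood on both sides. Among the lower, AOS, for allene oxide synthase, read 119.14, 19.47 and 29.54 FPKM in EX against 207.5, 106.74 and 53.56 FPKM in MT (log2 -1.34, adjusted p = 1). The lipoxygenase gene loxD read 110.48, 44.59 and 56.21 FPKM in EX against 178.77, 87.97 and 89.92 FPKM in MT (log2 -0.77, adjusted p = 1). In both, library 1 was the highest of its group, which made the groups overlap. SLJAZ3 (log2 -1.20) and JAZ2 (log2 -0.75), which encode repressors of jasmonate responses, were lower in each pair as well. MYC2, the central transcription factor of that response, read 41.37, 44.71 and 35.22 FPKM in EX against 63.98, 60.17 and 52.92 FPKM in MT, without overlap (log2 -0.54, adjusted p = 1). Higher in 3 of 3 pairs were AOS2, another allene oxide synthase gene (log2 0.26), OPR1 (0.12), HPL (0.18), the jasmonate receptor gene COI1 (0.11) and the divinyl ether synthase gene DES. AOC and OPR3, of jasmonate synthesis, had pairs of both signs. DES stood at 3.13, 0.74 and 2.55 FPKM in EX against 0.45, 0.31 and 0.04 FPKM in MT (log2 1.23, adjusted p = 0.096).

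Wound and inhibitor genes were spread widely around a median of 0.10. mcpi and ARPI lay above MT without overlap, and threonine deaminase TD2 read 9.37, 23.61 and 9.88 FPKM in EX against 4.67, 9.57 and 3.6 FPKM in MT (log2 1.11, adjusted p = 1). TD2 was higher in 3 of 3 pairs although its groups overlapped by a narrow margin. ARG2, an arginase gene, had a log2 difference of -0.45 with pairs of both signs. RNALE, a ribonuclease gene named after its values were seen, read 21.75, 19.75 and 7.03 FPKM in EX against 7.38, 6.32 and 0.53 FPKM in MT (log2 1.78, adjusted p = 1), with library 3 the lowest of each group.

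**Figure D5:**
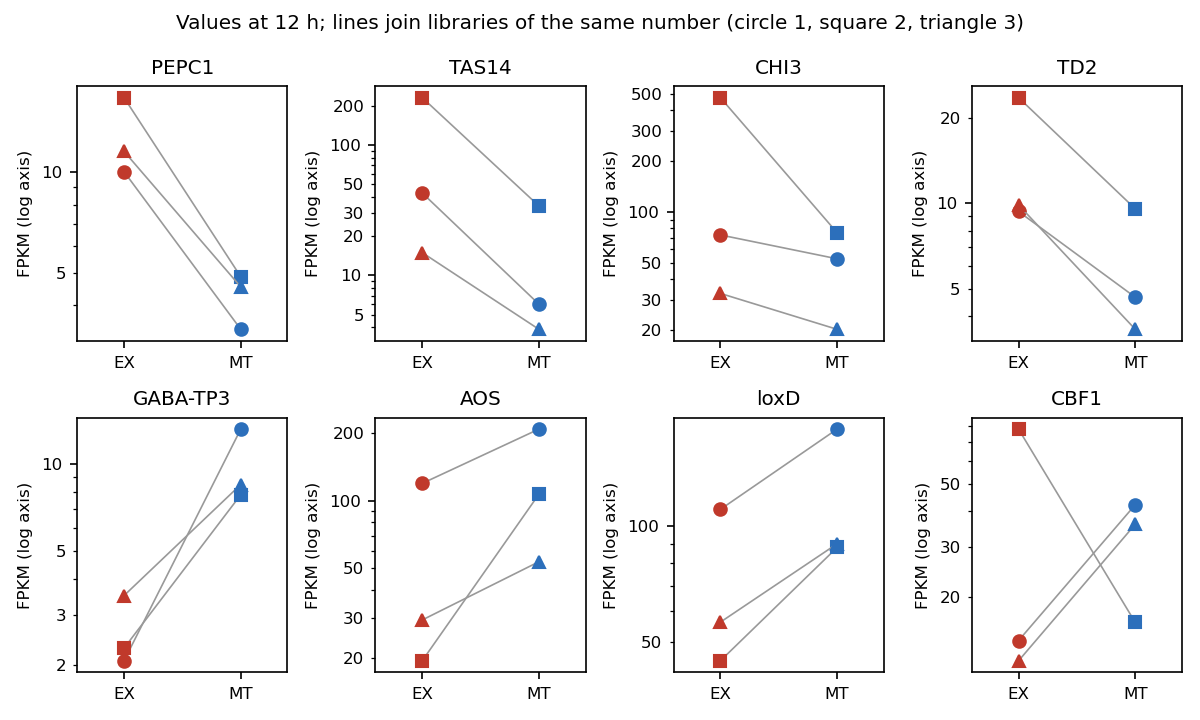
FPKM at 12 h (log axis) of 8 genes in EX (left, red) and MT (right, blue), with lines between libraries of the same number. All 3 lines slope the same way for PEPC1, TAS14, CHI3, TD2, GABA-TP3, AOS and loxD, whereas that of library 2 crosses the others for CBF1.

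The 21 photosystem and light-harvesting genes were below 0 in 19 cases at 12 h, with a median of -0.18 log2 units. The same list had medians of 0.55 at 0 h and 0.61 at 4 h, and the change of a list with time was not tested. In some of these genes MT library 1 was low at the earlier hours. CAB4 in MT read 1315.95, 2868.1 and 3307.36 FPKM at 0 h and 1578.45, 2412.04 and 3182.24 FPKM at 4 h. PSBR in MT did not share this, at 9457.36, 8247.09 and 9648.63 FPKM at 0 h. The part of that library in the earlier medians was not tested. EX was lower in 3 of 3 pairs in 11 of the 21, and none was called. Cab-1A, a light-harvesting gene that another gene overlaps on the opposite strand, read 783.99, 406.95 and 607.49 FPKM in EX against 947.04, 701.3 and 1035.87 FPKM in MT (log2 -0.61). Library 2 was the lowest of each group and the groups overlapped. CAB5 was an exception, at 786.65, 627.09 and 581.04 FPKM in EX against 448.77, 479.78 and 564.6 FPKM in MT (log2 0.41, adjusted p = 1). Rubisco small subunit gene rbcS1 stood at 5345.83, 4019.13 and 4156.22 FPKM in EX against 5705.37, 5243.11 and 5573.22 FPKM in MT (log2 -0.30). These defining genes of green leaf were thus high in all 6 libraries.

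Among the gibberellin genes, EX lay above MT without overlap in 4 of 11, against 6.95% of all genes, and the median was 0.31. The 4 were the receptor genes GID1ac (log2 0.30) and GID1b-2 (log2 0.70), the F-box gene GID2 (log2 0.31) and the biosynthetic oxidase gene 20ox-2 (log2 0.73), none of them called. GID1b-2 read 17.95, 17.52 and 12.91 FPKM in EX against 9.81, 12.73 and 6.63 FPKM in MT, with EX library 3 only just above MT library 2. GAI, the repressor of gibberellin responses, was close to 0 (log2 -0.03). Abscisic acid genes had a median of 0.19, with 9 of 11 above 0 and 4 higher in 3 of 3 pairs. PP2C-2, of the phosphatases that hold back abscisic acid signalling, lay at 0.61 and CYP707A2, of abscisic acid breakdown, at -0.51 log2 units.

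The other hormone lists stayed near the median of all genes. Auxin genes had a median of 0.01 over 62 genes, with LAX3, an influx carrier, at 0.57 and GH3-10, of auxin conjugation, at -0.46. Cytokinin genes had a median of -0.07 over 14 genes, and TLOG1, of cytokinin activation, read 225.42, 162.92 and 240.83 FPKM in EX against 494.34, 436.16 and 216.51 FPKM in MT (log2 -0.80). MT library 3 lay within the EX range there. Ethylene genes had a median of 0.10 over 26 genes, and ACO3, an ACC oxidase gene, was at 27.23 FPKM in EX library 2 and at or below 3.67 FPKM in the 5 others. ERF factors had a median of 0.06 over 41 genes, from EREB at -1.09 to a highest of 0.73, with ERF-D4 at 0.68. EREB read 11.33, 12.89 and 4.53 FPKM in EX against 31.54, 27.73 and 8.74 FPKM in MT, lower in 3 of 3 pairs with overlapping groups.

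The 8 ribosomal protein genes were all below 0, from -0.63 to -0.01, and EX lay below MT without overlap in 4 of them (5.44% over all genes). RPL3 read 206.08, 212.13 and 220.95 FPKM in EX against 252.44, 251.35 and 231.05 FPKM in MT, and rps16 was the lowest at -0.63 log2 units. Their median was also below 0 at 0 h (-0.34) and at 4 h (-0.40). In sugar and starch metabolism the median was 0.08 over 28 genes, from the invertase gene LIN8 at -0.61 to CIF1 at 0.73. In carbon fixation the aldolase gene FBA7 read 44.36, 33.8 and 36.99 FPKM in EX against 22.83, 23.9 and 20.81 FPKM in MT (log2 0.74, adjusted p = 0.35), while the list median was 0.01.

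The other lists had medians between -0.05 and 0.14. In nitrogen assimilation GLB1, a non-symbiotic hemoglobin gene, read 35.43, 34.46 and 35.11 FPKM in EX against 10.53, 27.06 and 24.09 FPKM in MT (log2 0.84, limma adjusted p = 1). Among antioxidant enzymes, the catalase gene cat1 lay at 0.46 and DHAR2, of ascorbate recycling, at -0.38 log2 units, where the groups did not overlap. Of the heat shock and chaperone genes, hsc70.3 lay at 0.58 and HSC80 at -0.25. HMGR4, of sterol precursor synthesis and overlapped on the same strand, lay at 0.74 and GAME4, of glycoalkaloid synthesis, at -0.54. XTH6, of cell wall loosening, differed by 1.93, -0.06 and 1.15 log2 units in pairs 1, 2 and 3, and tXET-B2 lay at -0.75. Aquaporin genes ranged from PIP1-3 at -0.24 to PIP2-4 at 0.81, carotenoid genes from a lowest of -0.45 to 0.16, and among cell cycle genes krp2, for an inhibitor of cyclin-dependent kinases, lay at 0.28 and CycA2, a cyclin, at -0.84.

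Markers of fruit, flower, root, pollen and trichome were summed as a check on the leaf material. Over the 19 in the table, the sum was 242.7 to 249.7 FPKM in EX and 199.3 to 275.2 FPKM in MT, so the MT range held that of EX, and no marker was at 0 in all libraries of a group. Of the 17 that passed the rule, none was called, and their median was 0.14 log2 units, with 7 higher in 3 of 3 pairs. The fruit expansin gene EXP1 read 2.79, 3.31 and 1.5 FPKM in EX against 0.63, 2.64 and 0.39 FPKM in MT. The trichome terpene synthase gene MTS1 read 3.87, 0.17 and 1.38 FPKM in EX against 8.48, 3.83 and 2.41 FPKM in MT (log2 -1.18). Their part in the results was not tested.

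The authors' deposited table gives a far longer list for the same groups. At a q-value under 0.05 it held 9111 of the 17016 genes (53.5%), 5293 higher and 3818 lower in EX. Among those 9111, the libraries of the groups did not overlap in 1969 (21.6%). With a q-value under 0.001 and an absolute log2 of at least 1, the authors' deposited table held 385 genes (2.26%), of which 194 (50.4%) had groups without overlap. All 23 genes called by limma were among the 385.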

How the data were processed

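RNA was sequenced from EX and MT leaves at 0, 4 and 12 h (3 libraries a group). Per the labels' protocols, Trizol was used for total RNA and BGI500 for the libraries. Per the file headers, the authors deposited FPKM values per gene and library, and also log2 ratios, p-values and q-values of their own comparisons, with no method stated. Per the submitters' processing notes, DESeq2 1.4.5 and RSEM 1.2.12 were in use, as were Bowtie2 2.2.5 and HISAT2 2.0.4. Roles and genome build are not stated. The table holds 22658 known genes and 690 added models. Symbols came from a reference table of assembly SLM_r2.1 (21649 identifiers matched, 1811 with a symbol), and coordinates are those of the deposited table. Use of strand in counting is not stated, so values of the 1565 overlapping genes are uncertain, as are those of near-identical gene families.

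The design foresaw counts or FPKM, and the test for FPKM was used. Values became log2(FPKM + 1), which understates fold changes of low genes. The 17870 genes whose mean reached 1 FPKM in any of the 6 groups were tested. limma 3.58.1 in R 4.3.3 was fitted over 18 libraries with 6 group means and a mean-variance trend, and p-values of both directions were adjusted by Benjamini-Hochberg. The fit was also run on simulated data, with noise independent between libraries and 1 SD per gene. The real libraries had shared deviations and unequal group spreads, so that run does not check the calls. Depth was read from genes of 1 transcript of 350 to 1500 bases, where 95.7 to 97.3% of low values fell within 0.1 of a whole fragment. Depths so read are estimates. FPKM totals at 12 h were 775862 to 798233.

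Same-numbered libraries deviated together at 12 h (correlations 0.57, 0.23 and 0.41) but not at 0 h (-0.23, -0.07, 0.34) or 4 h (-0.42, -0.01, -0.06). Between libraries of different numbers the highest was 0.47 at 0 h (EX 2 with MT 1), 0.39 at 4 h (EX 1 with MT 3) and 0.16 at 12 h. A match of numbers at 12 h alone is therefore weak ground for a pairing. This pairing at 12 h comes from the data, since no label gives it, and the fits with the number as a block at 12 h, or on the 12 h libraries alone, were added after the data were seen.

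The genes, lists and rules were chosen with earlier results of these data known. The 26 lists were rewritten once symbols and values had been seen, to correct misassigned symbols, and they support nothing by themselves. Picked for naming were the called genes, CBF1, PEPC1 and the 8 highest and 8 lowest differences among genes with a symbol, no overlap and 5 FPKM or more in the higher mean. From each list, the largest difference in each direction among genes of 5 FPKM or more was picked, or the 2 largest where all had 1 direction. Some of these list picks are left out of the text. Further list members, loxD, RNALE, EREB, ACO3, LE25, the genes near 0 and overlapping partners were named after their values were seen. Of the called genes, 1 is counted but not reported here. No sequences were used here.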

Additional observations from a re-analysis of the deposited data

Results flagged for a closer look

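In 9 genes the difference between EX and MT at 12 h departed from that at an earlier hour by a limma test of the change itself. Against 0 h, the change was -4.11 log2 units in LOC101246665, -3.96 in GLB1, -2.52 in LOC101266830 and 2.03 in LOC101250115. Against 4 h, it was -3.33 in BGI_novel_G000263, -2.36 in LOC101266830, -1.59 in LOC101250115, -1.40 in BGI_novel_G000362, 1.33 in LOC101264000, 1.34 in LOC101256110 and 3.17 in LOC104644367.

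LOC101246665 (chromosome 1) read 5.19, 12.96 and 8.73 FPKM in EX against 16.43, 9.7 and 11.18 FPKM in MT at 12 h. At 0 h it read 59.2, 50.07 and 71.32 FPKM in EX against 3.64, 3.14 and 5.03 FPKM in MT, so a wide difference at 0 h had become overlapping groups at 12 h. GLB1 read 34.17, 36.97 and 22.92 FPKM in EX against 0.19, 0 and 0.25 FPKM in MT at 0 h. By 12 h MT stood at 10.53, 27.06 and 24.09 FPKM and EX at 35.43, 34.46 and 35.11 FPKM, so the change lay mostly in MT. LOC101256110 (chromosome 8) read 6.5, 5.15 and 6.38 FPKM in EX against 3.59, 3.92 and 2.66 FPKM in MT at 12 h, and 5.93, 5.81 and 4.83 FPKM in EX against 10.29, 7.64 and 10.18 FPKM in MT at 4 h. LOC101264000, which overlaps another gene on the same strand, turned in the same way, with 0.70 log2 units at 12 h and -0.63 at 4 h. LOC104644367, overlapped on the opposite strand, was at or below 0.49 FPKM in all 6 libraries of 12 h, so its change comes from 4 h. With the library number as a block over all hours, the adjusted p of the change was 0.0576 in LOC101256110, LOC101264000 and LOC104644367 and 0.0675 in BGI_novel_G000362, so these 4 lost the call. With the block at 12 h it was 0.0735 in LOC101256110 and LOC104644367, 0.0984 in BGI_novel_G000362 and 0.0251 in LOC101264000. The other changes kept their call in both block fits. Single libraries were not tested as outliers, since groups held 3.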

How the results depend on the processing

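The main count of 24 calls (23 genes of the set and LOC101248405, whose higher mean was under 1 FPKM) became 7 with a filter of 5 FPKM in 3 or more libraries (12 of the 24 were still tested, and 5 of these lost the call), 99 with library weights, and 7 with the library number as a block on the 12 h libraries alone (1 shared, LOC101262798, with 1997 genes at an unadjusted p under 0.05, against 599). The authors' deposited table held 9978 genes at a q-value under 0.05, counted over all deposited genes rather than the 17870 tested here. The main count ranged from 9 to 17 when 1 library of 12 h was left out, from 14 to 17 without an EX library and from 9 to 10 without an MT library, fits with fewer samples. With the 12 h libraries fitted alone it was 25, of which only 11 were shared, so 13 of the 24 lost the call there. Under the other settings it ran from 17 (pseudocount 0.1) to 25 (median-of-ratios factors). With the replicate block it was 22, and with the block at 12 h 18, of which 17 were shared. For the change since 0 h, 4 calls became 2 with the 5 FPKM filter, 3475 with library weights and 7 once MT lost its first library of each earlier hour, and 4 to 8 with a 12 h library left out. For the change since 4 h, 7 calls became 4 with a pseudocount of 5, 11 with no filter, 2 with the 5 FPKM filter, 3 with the replicate block, 126 with library weights and 2 once MT lost those libraries, and 1 to 6 with a 12 h library left out. Where no cause is named, the cause was not tested.

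Without any 1 library of 12 h, 7 of the called genes besides LOC101251055, each near 0 in 1 group, kept their call in all 6 fits. For genes near 0 in 1 group these fits are a weaker check. With the block at 12 h, BGI_novel_G000575 (adjusted p 0.0614), BGI_novel_G000581 (0.0559), BGI_novel_G000588 (0.0614), LOC101253503 (0.0634) and LOC101255379 (0.0614) lost it too. No called gene changed sign under the settings run. Of 99 named genes, 8 uncalled ones did. CBF1 was 0.10 and GA2ox3 0.078 in the authors' deposited table, and ERF-D4 was -0.23 and CRF6 -0.47 with library weights. With 1 library of 12 h left out, log2 differences ran from -1.12 to 0.19 for CBF1, -0.58 to 0.64 for CRF6, -0.94 to 0.20 for DREB2, -0.33 to 0.11 for EBF1, -0.01 to 1.69 for ERF-D4, -0.67 to 0.38 for GA2ox3, -0.49 to 0.03 for TPS7 and -0.017 to 0.523 for krp2. The median of all genes moved from 0.023 to 0.004 with median-of-ratios factors and to -0.006 with quantile normalization.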

Other observations

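The 23 genes lie on 9 chromosomes, with 4 on chromosome 7 (0.315% of its genes, 1 higher in EX), 4 on chromosome 11 (0.348%, all higher) and 3 each on chromosomes 1 (0.139%, all higher), 4 (0.206%, 2 higher) and 5 (0.266%, 1 higher), against 0.135% over all genes. Summed over the 23, 435 neighbours of the set lay within 200 kb (a gene near 2 of them counts for both), of which none was called and 78 (17.9%) had groups without overlap, against 12.4% over all genes. Around BGI_novel_G000240 on chromosome 4, EX lay above MT without overlap in 7 of 42 neighbours and below in 13. In the stretch of chromosome 7 from 1.3 to 4.6 Mb, chosen after its values at 0 h were known, 3 of 181 genes were called (1.66%), and the groups did not overlap in 24.9%, with EX above in 25 genes and below in 20. DEFL1, mcpi, GLB1 and rps16, named above from separate lists and not called at 12 h, lie in this stretch too. The part of position in their differences was not tested.

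JA2, a gene that overlaps another on the same strand, read 31.03 FPKM in EX library 2 and was listed at 0 in the 5 other libraries of 12 h.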
